A study of Mus musculus with 4 samples.

Results

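The clustered protocadherin genes are 58 of the 54842 genes in the deposited count table, chosen by symbol: every gene of the alpha cluster (14 genes), the beta cluster (22 genes) and the gamma cluster (22 genes). After removal of ribosomal RNA, total RNA of mouse embryonic fibroblasts (MEF cells) was sequenced, with 2 libraries from untreated wt cells and 2 libraries from untreated Top2β-null cells, which lack topoisomerase 2β. The study asked for a topological influence on repeat transcription, and the protocadherins were counted in the same table. Top2β-null cells were derived from Top2β-null mice and were received from other laboratories, so that genotype and origin of the cells cannot be told apart. The sources used here give neither the strain of the wt and of the Top2β-null cells nor the embryonic age at which they were taken. The labels do not say whether libraries of 1 genotype came from separate cultures, and p-values then measure only the spread between these libraries. Each library held between 133116830 and 149647278 counts in all. Top2b, the targeted gene, had 18259 and 18465 normalized counts in wt and 3879 and 3789 in Top2β-null cells, where 20.9% of the wt level remained.

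Clustered protocadherins are adhesion proteins of the cell surface, best known from neurons, where different combinations of them let a cell tell its own branches from those of other cells. Each gene has a large first exon with a promoter of its own. In the alpha and gamma clusters this variable exon, which encodes the extracellular domains, is spliced to constant exons at the end of the cluster, which encode a shared cytoplasmic tail. Beta genes consist of a variable exon and have no constant exons. The last genes of the alpha and gamma clusters, called C-type, are related to each other more than to their neighbours. Promoters of most, but not all, variable exons are bound by CTCF and cohesin, which connect them to distant enhancers, and are silenced by DNA methylation.

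The 58 genes lie on the forward strand of chromosome 18 (GRCm38, also called mm10), from the start of Pcdha1 at 36930184 to the end of the gamma constant exons at 37841873. The order along the chromosome is alpha, beta, gamma. GENCODE gives 57 of them as protein coding and Pcdhgb8 as a polymorphic pseudogene. A count is given here as a normalized count, scaled by edgeR's TMM factors to a library size common to the 4 libraries. Log2 fold changes compare Top2β-null with wt MEF cells, and SE is their standard error. A gene was called higher or lower when its adjusted p was below 0.05, its absolute log2 fold change above 1 and its mean normalized count above 100 (edgeR's quasi-likelihood test, Benjamini-Hochberg adjustment over 26566 genes and repeat families).

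The 3 clusters differed from each other in direction. RNA of the alpha cluster was near 0 in Top2β-null cells, RNA of the beta cluster was several times higher than in wt, and the gamma cluster as deposited was nearly level. By the cut-offs, 1 alpha gene was called lower, 8 beta genes were called higher and no gamma gene was called. Among all features tested, 5.27% were called higher and 4.97% lower. Whether the cells make less RNA or fewer cells make it cannot be told apart in bulk RNA.

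**Figure D1:**
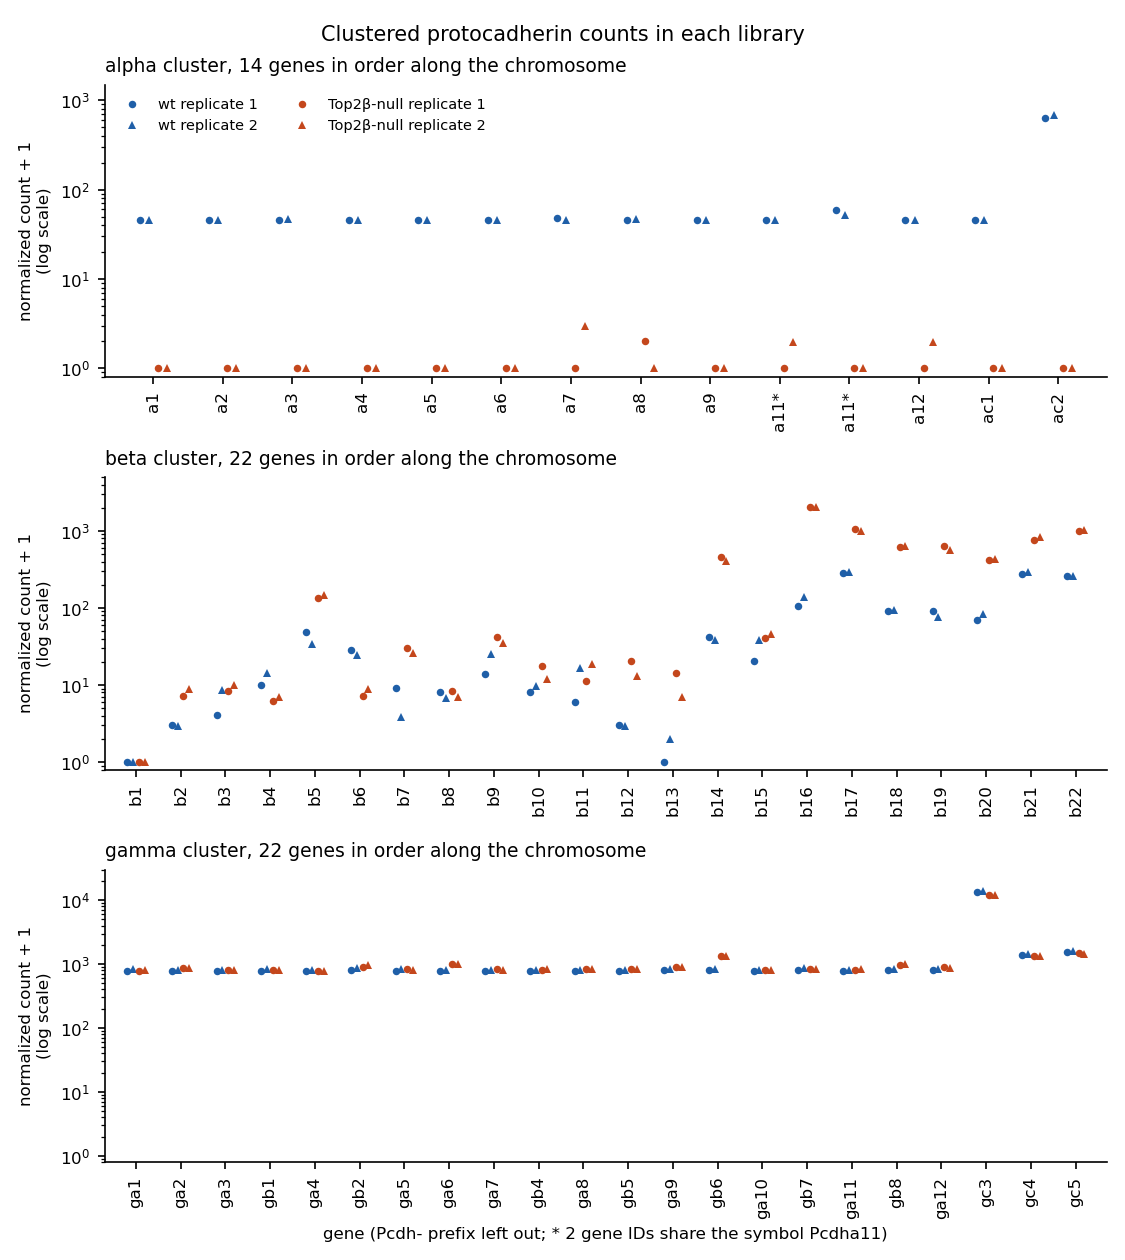
Normalized count plus 1 (log axis) of each of the 58 genes, in chromosomal order, in the alpha, beta and gamma clusters. Each point is 1 library (blue, wt; red, Top2β-null; circle, replicate 1; triangle, replicate 2). Alpha genes were at 0 to 1.98 normalized counts in Top2β-null cells, most beta genes from Pcdhb14 on were higher than in wt, and gamma genes other than C-type lay close to a common level.

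The alpha cluster was all but silent in Top2β-null cells. Its 14 genes together had 1216 and 1312 counts in wt against 1 and 4 in Top2β-null cells. As normalized counts their sum was 1247 ± 28.2 (SD, n = 2) in wt against 2.5 ± 2.07 in Top2β-null cells. The pooled counts were 493-fold lower, with an exact 95% interval from 211-fold to 1520-fold that covers counting error only. In every library of Top2β-null MEF cells each of the 14 genes had at most 3 counts, which was taken as the floor, and 10 of them had 0 counts in both libraries.

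Nearly all of the wt signal that could be placed in the alpha cluster belonged to Pcdhac2, the last C-type gene of the cluster (37143503 to 37187657). It had 634 and 681 normalized counts in wt and 0 in both Top2β-null libraries. The groups did not overlap, and Pcdhac2 was at least 216-fold lower, taking 3 counts per library as the floor. It was the alpha gene called lower (adjusted p = 3.8e-14, edgeR). Like the rest of its cluster it passed the filter on low counts through the wt libraries alone, and with no filter its adjusted p was 1.8e-34 (edgeR). Pcdhac2 encodes an isoform with its own extracellular domains and the tail shared by the alpha cluster.

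The other 13 alpha genes had nearly the same value in wt. Pcdha1, the first gene of the cluster, had 44.4 normalized counts in both wt libraries, and so did Pcdhac1, the other C-type gene. The lowest alpha gene had 44 and 46 counts in the wt libraries, and 12 of the 14 genes lay within 5 counts of it in each. All alpha genes share between 2860 and 2864 exonic bases of constant exons, so reads in these exons fit each of the 14 genes. An equal share per gene of 44 and 46 counts makes up 50.7% and 49.1% of the cluster's counts in the wt libraries. That reads were divided in this way was read from the values, since the counting mode is not stated.

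Over this common share, Pcdhac2 had 584 and 659 counts in wt. The gene ENSMUSG00000102206 (Pcdha11) had 13 and 7, and the other 12 alpha genes had at most 3. A second gene ID, ENSMUSG00000007440, carries the same symbol in GENCODE M21, while RefSeq has Pcdha10 at its position. Expression of a variable exon other than that of Pcdhac2 was therefore hardly detectable at this depth in either genotype. When adjusted p alone was applied, all 14 alpha genes were lower (edgeR), against 32.5% lower and 32.5% higher among all features tested. These 14 calls are not separate observations, because 13 of them rest largely on the shared constant exons, and all of them passed the filter on low counts through the wt libraries alone. The median log2 fold change of -8.48 depends on the prior count of the fit, and with each gene set to its floor it was -3.87.

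The beta cluster moved the other way. Summed over its 22 genes, wt libraries had 1402 ± 60.4 normalized counts (SD, n = 2) and Top2β-null libraries 7271 ± 13.4, which is 5.19-fold more. The libraries did not overlap, with sums of 1360 and 1445 in wt against 7281 and 7262. Beta genes share no constant exons, so these counts can mostly be placed on single genes. Exceptions are reads that fit several of these similar paralogs, which the alignment kept, and reads of Pcdhb12, which an antisense gene overlaps.

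Of the 22 beta genes, 16 had enough counts to be tested, which required at least 10 counts in at least 2 libraries. Those called higher were 8 genes, Pcdhb14 and Pcdhb16 to Pcdhb22, and no beta gene was called lower, in edgeR and DESeq2 alike. By adjusted or unadjusted p alone, 12 were higher and 1 was lower (edgeR), and 3 were not past the threshold, against 32.5% each way by adjusted p over all features. The groups did not overlap for 14 genes in the higher and 1 in the lower direction, against 40.3% higher and 40.2% lower over all features tested. The median log2 fold change over the 16 tested beta genes was 1.90, and over all genes tested it was -0.0058. Of the 16, 3 (Pcdhb7, Pcdhb10 and Pcdhb12) passed the filter through the Top2β-null libraries alone and 1 (Pcdhb6) through the wt libraries alone. With no filter, 21 beta genes were tested, 13 were higher and 1 lower by adjusted p (edgeR), and the median was 1.80.

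Pcdhb16 (37477814 to 37483038) had the largest log2 fold change of the 16 tested beta genes. It had 106 and 137 normalized counts in wt and 2019 and 2043 in Top2β-null cells. Both Top2β-null libraries lay far above both wt libraries, a log2 fold change of 4.06 ± 0.0832 (SE; adjusted p = 4.2e-16, edgeR), or 16.7-fold. Its share of all beta counts went from 7.80% and 9.49% in wt to 27.7% and 28.1% in Top2β-null cells.

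Pcdhb14 (37447656 to 37456350) followed, with 40.4 and 37.7 normalized counts in wt and 462 and 408 in Top2β-null cells (11.1-fold). On the log2 scale the fold change was 3.47 ± 0.147 (SE; adjusted p = 4.0e-12, edgeR). Pcdhb19 rose from 89.8 and 76.3 to 628 and 558 normalized counts, a log2 fold change of 2.83. These are adhesion receptors of the same kind, whose extracellular domains bind like molecules on other cells.

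Pcdhb18 had a log2 fold change of 2.77, with 90.8 and 92.7 normalized counts in wt and 616 and 634 in Top2β-null cells. Pcdhb20 had one of 2.47, with 69.6 and 83.1 against 415 and 434. None of the groups overlapped for these genes, and their replicates lay close together. For Pcdhb22, the last gene of the cluster (37517871 to 37524479), the values were 256 and 261 in wt and 985 and 1020 in Top2β-null cells, a log2 fold change of 1.95. Pcdhb17 (1.84) and Pcdhb21 (1.51) had the smallest fold changes among those called. They were also the 2 beta genes with the most RNA per length in wt, at 61.7 and 59.5 normalized counts per kb of exons. Pcdhb21 and Pcdhb22 share 455 exonic bases, so part of their reads fits both.

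The exception in this stretch was Pcdhb15, between Pcdhb14 and Pcdhb16. It had 19.2 and 37.7 normalized counts in wt and 39.4 and 45.6 in Top2β-null cells, a log2 fold change of 0.57 (adjusted p = 0.141, edgeR). The groups were separate by a small margin, and the difference did not pass the test. Pcdhb6 was the beta gene that was lower, with 27.3 and 23.2 normalized counts in wt and 6.21 and 7.92 in Top2β-null cells (log2 fold change -1.81, adjusted p = 0.00149, edgeR). At a mean of 16.1 it lay below the cut-off on level, and with no filter its adjusted p was 0.0014 (edgeR). Pcdhb15, Pcdhb6 and the genes of the next paragraph were picked out after their values were seen.

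The first 13 beta genes were expressed at low levels in both genotypes. Pcdhb1, the first gene of the cluster (37264938 to 37267525), had 0 counts in all 4 libraries, which allows up to 3 counts per library. Pcdhb5 had the most counts among them, 48.4 and 32.8 normalized counts in wt and 134 and 146 in Top2β-null cells (log2 fold change 1.78, adjusted p = 1.7e-06, edgeR), and its mean of 90.1 fell short of the cut-off of 100. Pcdhb7 had 8.07 and 2.90 normalized counts in wt and 29.0 and 24.8 in Top2β-null cells (log2 fold change 2.28). Pcdhb12 was at the floor in wt, with 2 counts in each library, and had 19 and 12 counts in Top2β-null cells. Only 1107 of its 3034 exonic bases are free of other genes. The antisense gene Gm37446 overlaps it and had 2 and 2 counts in wt and 13 and 8 in Top2β-null cells. Their reads cannot be told apart unless strand was used in counting. The 6 beta genes not tested, Pcdhb1, Pcdhb2, Pcdhb3, Pcdhb4, Pcdhb8 and Pcdhb13, had at most 14 counts in any library.

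Level followed the order along the beta cluster. Spearman's rho between position and normalized count per kb was 0.73 in wt and 0.836 in Top2β-null cells over 22 genes that share libraries, given as a description. Between position and log2 fold change it was 0.379 over the 16 tested genes. Pcdhb14 to Pcdhb22 together held 90.3% and 90.4% of the beta counts in wt and 95.9% and 96.0% in Top2β-null cells. Their sum rose 5.51-fold, from 1267 ± 55.6 to 6980 ± 7.08 normalized counts (SD, n = 2). The sum of Pcdhb1 to Pcdhb13 rose 2.15-fold, from 136 ± 4.86 to 292 ± 6.35. This split of the cluster was made after the values were seen, and the difference between the stretches was not tested.

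**Figure D2:**
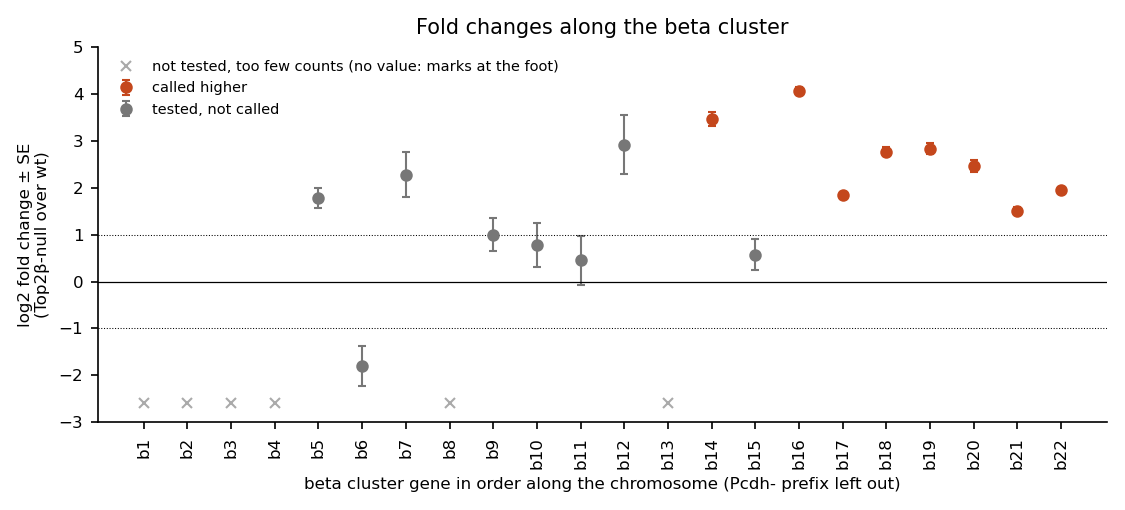
Log2 fold change of each beta gene with its standard error (edgeR), in chromosomal order; dotted lines mark an absolute value of 1. Called genes (red) sit from Pcdhb14 on, with Pcdhb15 the uncalled gene among them, and 6 genes with too few counts have crosses at the foot of the plot that carry no value.

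In expression per length, the order of the beta genes changed between genotypes. In wt, Pcdhb17 (61.7 ± 1.53 normalized counts per kb, SD, n = 2) and Pcdhb21 (59.5 ± 2.30) led and did not differ beyond their spread, and Pcdhb22 followed at 39.1 ± 0.474. In Top2β-null MEF cells, Pcdhb16 led with 389 ± 3.35 per kb, then came Pcdhb17 (221 ± 6.50), Pcdhb21 (170 ± 8.18) and Pcdhb22 (152 ± 3.77). Pcdhb16 had 23.3 ± 4.22 per kb in wt. For scale, the median over 14663 tested protein-coding genes was 486 normalized counts per kb in wt and 482 in Top2β-null cells, so each beta gene stayed below the median gene in both.

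The gamma cluster had more counts than the other clusters in both genotypes. Its 22 genes summed to 31930 ± 716 normalized counts (SD, n = 2) in wt and 31430 ± 139 in Top2β-null cells. The log2 ratio of -0.023 was smaller than the replicate SD of 0.0330, and it turned positive, to 0.047, with scaling to the total count. No gamma gene was called in either direction by edgeR or DESeq2. By adjusted p alone, 4 were higher and 2 lower of 22 (5 and 2 by unadjusted p, edgeR), against 32.5% in each direction over all features tested, and the log2 fold changes of the 22 genes ran from -0.19 to 0.72.

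As in the alpha cluster, most gamma genes carried a common share of counts. In wt the lowest gamma gene was Pcdhga10, with 759 and 836 counts. In Top2β-null cells it was Pcdhga1 in replicate 1 (758 counts) and Pcdhga4 in replicate 2 (794 counts). The lowest count times 22 genes makes 53.6% to 55.2% of the cluster's counts in the 4 libraries. Gamma genes share at least 2116 exonic bases with each other. A change in the reads of a variable exon is thus diluted in the deposited counts, and each gene was also fitted by its counts over the lowest gamma gene in that library. This treatment was chosen after the values were seen, and it takes the lowest gene to have no reads of its own.

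Over the lowest gene, 20 gamma genes could be tested. Pcdhgb6, Pcdhga6 and Pcdhgb8 were called higher and none lower by edgeR, and DESeq2 called 3 higher as well. By adjusted or unadjusted p alone (edgeR), 13 were higher, 3 were lower and 4 were not past the threshold, beside 32.5% each way over all features in the fit of the deposited counts. The 3 lower genes were the C-type genes, and the 13 higher genes all belonged to the 19 others. Among the higher genes, Pcdhga5 did not pass with DESeq2 (adjusted p = 0.117, against 0.0221 with edgeR). Pcdhgc4 did not pass with DESeq2 (adjusted p = 0.147), without wt replicate 1 (adjusted p = 0.112, edgeR) or without Top2β-null replicate 2 (adjusted p = 0.0739, edgeR). Pcdhga6, Pcdhga2 and Pcdhgb4 had under 10 such counts in both wt libraries, so they passed the filter through the Top2β-null libraries alone, where they are high, and the counts of higher genes include them. With no filter, the adjusted p of Pcdhga6 was 2.1e-28 (edgeR).

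Pcdhgb6 (37742094 to 37841873) had 37 and 33 counts over the lowest gene in wt and 545 and 575 in Top2β-null cells. The libraries were far apart, at a log2 fold change of 4.03 ± 0.133 (SE; adjusted p = 3.3e-15, edgeR). In the deposited counts the same gene had a log2 fold change of 0.72, from 803 and 839 to 1349 and 1356 normalized counts (adjusted p = 7.8e-09, edgeR). It was the gamma gene of the B subfamily with the most such RNA in Top2β-null cells, and it held 10.9% and 9.88% of the counts over the lowest gene among the genes outside the C-type in wt and 32.6% and 31.6% in Top2β-null cells.

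Pcdhga6 had 8 and 5 counts over the lowest gene in wt and 209 and 227 in Top2β-null cells (log2 fold change 5.08, SE 0.261, adjusted p = 3.0e-12, edgeR). The size of the fold changes over the lowest gene depends on that gene having no reads of its own. For Pcdhgb8, the annotated pseudogene, the counts were 30 and 18 against 179 and 227 (log2 fold change 3.11, adjusted p = 6.0e-10, edgeR). In the deposited counts these genes had log2 fold changes of 0.34 and 0.29. Pcdhgb2 just missed the cut-off on level, with a mean of 98.6 and a log2 fold change of 1.38. Pcdhga2 (4.74), Pcdhga9 (2.12) and Pcdhga12 (1.72) had means below it as well. The value of Pcdhga2 was 5.99 without wt replicate 1 and 4.06 without wt replicate 2. Pcdhgb7 showed no such difference, with 37 and 48 counts over the lowest gene in wt and 48 and 35 in Top2β-null cells (log2 fold change 0.0053, SE 0.284). These gamma genes were picked out after their values were seen.

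Together, the 19 gamma genes outside the C-type had 333 ± 15.3 normalized counts over the lowest gene in wt (SD, n = 2) against 1769 ± 49.4 in Top2β-null cells. The A subfamily of 12 genes had 172 and 130 in wt against 700 and 701, and the B subfamily of 7 genes had 173 and 192 against 1034 and 1102. Any fold of these sums depends on the lowest gene having no reads of its own. In the deposited counts the sum of the same 19 genes was 1.09-fold that of wt.

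**Figure D3:**
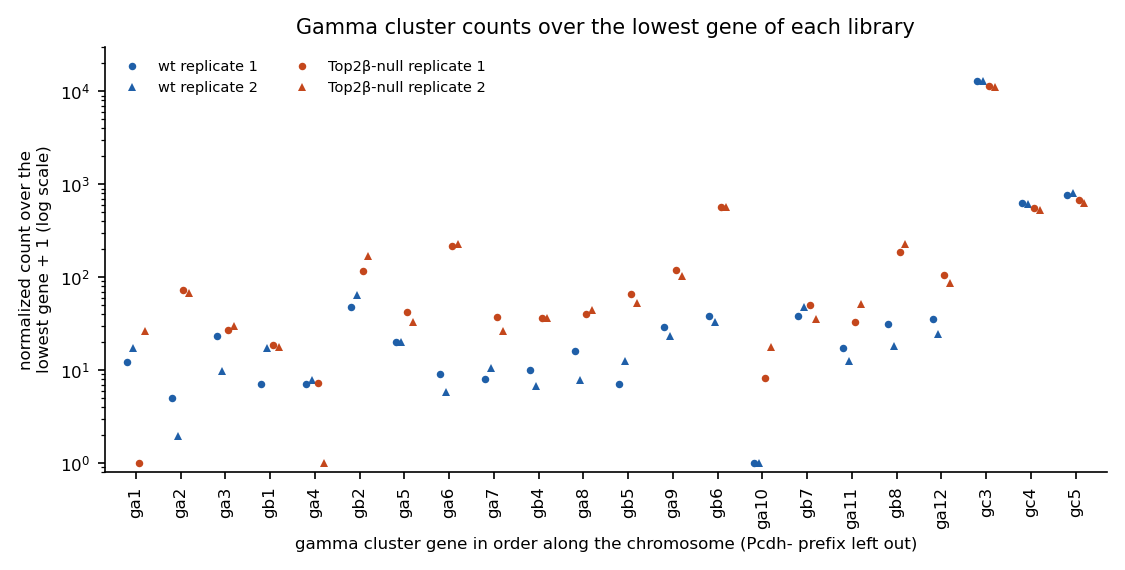
Normalized count over the lowest gamma gene of the same library, plus 1 (log axis), for the 22 gamma genes in chromosomal order; colours and symbols as in the plot of all levels. Pcdhgb6, Pcdhga6 and Pcdhgb8 stand out in Top2β-null cells, while the C-type genes Pcdhgc3, Pcdhgc4 and Pcdhgc5 are slightly higher in wt.

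The C-type genes at the end of the gamma cluster carried most of its placeable RNA. Pcdhgc3 (37806364 to 37841873) had 13593 and 13747 normalized counts in wt and 12084 and 11860 in Top2β-null cells. The groups did not overlap, and the log2 fold change was -0.19 ± 0.0249 (SE; adjusted p = 4.6e-06, edgeR), well inside the cut-off of 1. At 2490 ± 19.7 normalized counts per kb in wt and 2180 ± 28.8 in Top2β-null cells (SD, n = 2), it was the clustered protocadherin with the most RNA per length in both genotypes and lay above the median protein-coding gene. The first exon of Pcdhgc3 overlaps the antisense gene BC037039 (37805718 to 37807922), and whether reads were counted by strand is not stated. BC037039 had 6714 and 6577 normalized counts in wt and 5602 and 5672 in Top2β-null cells, so reads of the antisense gene may be among those of Pcdhgc3.

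Pcdhgc5, the last gene of the cluster (37819513 to 37841873), had 1538 and 1610 normalized counts in wt and 1461 and 1413 in Top2β-null cells (log2 fold change -0.13, adjusted p = 0.0317, edgeR). It did not pass with scaling to the total count (-0.062, adjusted p = 0.297, edgeR), DESeq2 (adjusted p = 0.151), no filter (adjusted p = 0.0762, edgeR), without wt replicate 2 (adjusted p = 0.19, edgeR) or without Top2β-null replicate 2 (adjusted p = 0.129, edgeR). Pcdhgc4 had 1393 and 1415 against 1333 and 1313 (log2 fold change -0.086, adjusted p = 0.148, edgeR). Over the lowest gene, the log2 fold changes of Pcdhgc3, Pcdhgc4 and Pcdhgc5 were -0.20, -0.20 and -0.27. The sum of the C-type genes over the lowest gene went from 14289 ± 84.9 normalized counts in wt to 12375 ± 209 in Top2β-null cells (SD, n = 2). In share of all gamma counts over the lowest gene, Pcdhgc3 went from 88.0% and 88.2% in wt to 79.3% and 78.9%, and the genes outside the C-type from 2.36% and 2.20% to 12.2% and 12.9%.

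The C-type genes of the alpha and gamma clusters differed in these cells. Pcdhac2 went from 657 ± 33.3 normalized counts (SD, n = 2) to 0, and Pcdhac1 showed no count over the common share in either genotype. Over the lowest gene, Pcdhgc3, Pcdhgc4 and Pcdhgc5 stood at 0.868, 0.871 and 0.827 of their wt level. C-type isoforms are known for promoters that are regulated differently from those of the other variable exons.

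Order along the gamma cluster told little. For Pcdhga1, the first gene (37661793 to 37841873), the values were 777 and 824 normalized counts in wt and 785 and 812 in Top2β-null cells, and they overlapped. Over the 19 genes outside the C-type, Spearman's rho between position and counts over the lowest gene per kb was 0.286 in wt and 0.372 in Top2β-null cells, and for the log2 fold change it was 0.25 over 17 tested genes. In the alpha cluster the rho of level with position was 0.033 in wt over 14 genes. These are descriptions over genes of the same libraries. Pcdhga10 has no exonic bases that are free of other genes, so no level can be given for it on its own. It was also the lowest gene in both wt libraries. Its counts over the lowest gene, 0 and 0 in wt and 7 and 17 in Top2β-null cells, are part of the sums and of the rho of level over the 19 genes.

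Among other genes around, between and inside the clusters, few were called, and more were lower than higher by adjusted p. Neighbours here are other genes of the annotation within 500 kb of the clusters or between their ends. Of 45 tested, 1 was called higher and 2 lower (5.27% and 4.97% over all features, edgeR). By adjusted p alone, 5 were higher and 21 lower (32.5% in each direction over all features), and the median log2 fold change was -0.093. Whether the neighbours differ from the clusters was not tested. Taf7, a subunit of the transcription factor TFIID that lies between the beta and gamma clusters on the reverse strand, had 583 and 528 normalized counts in wt and 587 and 546 in Top2β-null cells. The groups overlapped, and the log2 fold change was 0.027 (adjusted p = 0.77, edgeR). Fchsd1, beyond the gamma cluster, was called lower with a log2 fold change of -1.02, and Vaultrc5, a vault RNA ahead of the alpha cluster, with -1.10.

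The neighbour called higher was Gm26672 (37746559 to 37768242), a transcript on the reverse strand within the gamma cluster. It had 51.5 and 47.3 normalized counts in wt and 206 and 177 in Top2β-null cells (log2 fold change 1.95, adjusted p = 6.4e-08, edgeR). It overlaps exons of gamma genes, Pcdhga10 among them, so its reads cannot be told apart from theirs unless strand was used in counting. Other transcripts in or next to the clusters were picked out after their values were seen. 3222401L13Rik, a lincRNA that ends just ahead of Pcdhga1 on the same strand, had 9.08 and 25.1 normalized counts in wt and 86.0 and 112 in Top2β-null cells (log2 fold change 2.51). Gm10544, on the reverse strand inside the alpha cluster, had 67.6 and 57.0 against 17.6 and 19.8 (log2 fold change -1.73). Gm37165, on the reverse strand and overlapping gamma genes, had 7.07 and 4.83 against 25.9 and 21.8 (log2 fold change 1.98). It passed the filter on low counts through the Top2β-null libraries alone. None of these reached the mean of 100. Gm29994 and Gm38182, also inside the gamma cluster, had log2 fold changes of 0.067 and -0.11.

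Fused transcripts that begin in the alpha cluster and end among the gamma constant exons showed no such change. Gm42416 (36952741 to 37840200) had 221 and 226 normalized counts in wt and 214 and 211 in Top2β-null cells. Gm37013 and Gm37388 had the same values as each other, 92.9 and 90.8 in wt and 86.0 and 88.1 in Top2β-null cells. Reads of the gamma constant exons fit these genes too, so their counts do not show transcription from the alpha promoters.

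**Figure D4:**
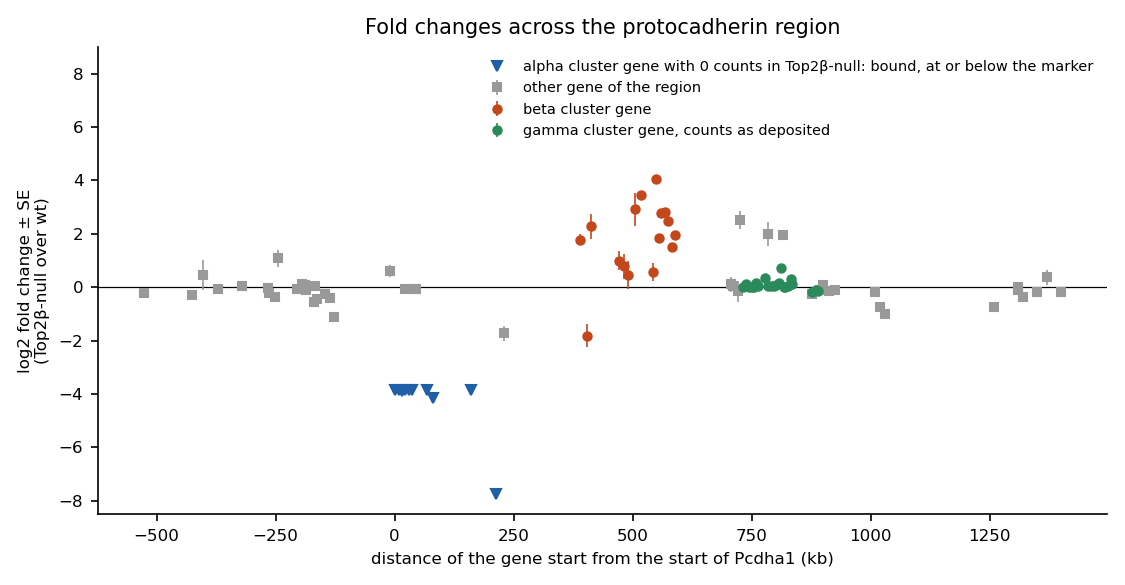
Log2 fold change with its standard error (edgeR) against the distance of each gene's start from the start of Pcdha1, in kb, for beta genes (red), gamma genes as deposited (green) and 45 other genes of the region (grey). Triangles give the upper bound for the 10 alpha genes with 0 counts in both Top2β-null libraries (3 counts per library as the floor). Alpha genes sit below 0, most beta genes above it, and most genes outside the clusters near it.

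The regulators of these promoters were all expressed in both genotypes. Of 28 listed genes for CTCF, cohesin, DNA methylation and silencing complexes, all were tested, none was called by edgeR or DESeq2, 16 were higher and 8 lower by adjusted as by unadjusted p alone (against the same 32.5% each way), and the median log2 fold change was 0.11 (edgeR). Ctcf, which binds the promoters and enhancers of the clusters, had 10202 and 10205 normalized counts in wt and 13318 and 13713 in Top2β-null cells (log2 fold change 0.41, adjusted p = 6.8e-10, edgeR). For Rad21, the cleavable subunit of cohesin, the values were 45331 and 45605 against 33568 and 34352 (log2 fold change -0.42). The groups did not overlap for either gene, in opposite directions.

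Smchd1, a silencing protein that acts on these clusters, had 32288 and 32847 normalized counts in wt and 24639 and 23666 in Top2β-null cells (log2 fold change -0.43). Dnmt3b, the methyltransferase that methylates variable exon promoters in the embryo, had 626 and 637 against 518 and 510 (log2 fold change -0.30, adjusted p = 0.00119, edgeR). Both were lower in each Top2β-null library. Uhrf1 had the largest decrease of the list, from 41212 and 41126 to 27043 and 27583 (log2 fold change -0.59), while other genes of the list were higher. Uhrf1 and the genes named next were picked out after their values were seen. Dnmt3a, the other de novo methyltransferase, had 1389 and 1340 normalized counts in wt and 2710 and 2677 in Top2β-null cells (log2 fold change 0.98, adjusted p = 1.3e-11, edgeR). Tet1, which oxidizes methylated cytosine, had 19.2 and 24.1 against 137 and 120 (log2 fold change 2.55), and Setdb1, a histone methyltransferase, had a log2 fold change of 0.55. Whether these differences have a part in those of the clusters was not tested.

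Protocadherins outside the clusters moved in both directions. Of 12 listed, 9 were tested, 2 were called higher and 1 lower (5.27% and 4.97% over all features), 5 were higher and 3 lower by adjusted p alone (32.5% each way), and the median log2 fold change was 0.47 (edgeR). Pcdh18 rose from 6800 and 6860 to 16790 and 16838 normalized counts (log2 fold change 1.3), and Pcdh7 from 97.9 and 78.2 to 362 and 360 (2.04). Pcdh9 fell from 1731 and 1763 to 337 and 315 normalized counts (log2 fold change -2.42). Pcdh17 and Pcdh10, picked out after their values were seen, had means below the cut-off on level: Pcdh17 had 0 in both wt libraries and 182 and 180 normalized counts in Top2β-null cells, and Pcdh10 had 1.01 and 0 against 83.9 and 95.1. Of 16 listed intracellular partners of the protocadherin tail (the WAVE actin regulator, focal adhesion kinases and related proteins), Abi3 of the WAVE complex was called lower, with 447 normalized counts in both wt libraries against 125 and 120 (log2 fold change -1.87). No partner was called higher by edgeR or DESeq2, and by adjusted as by unadjusted p 8 were higher and 6 lower, against 32.5% each way over all features.

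Markers of the labelled cell type were present. Of 13 fibroblast markers 12 were tested, and their sum was 1345167 and 1369113 normalized counts in wt and 940866 and 947725 in Top2β-null cells. They moved apart, with 4 called higher (Pdgfra, Pdgfrb, Thy1 and Dcn) and 3 lower (Col1a1, Col3a1 and Postn), against 5.27% and 4.97% over all features. By adjusted p alone, 6 were higher and 5 lower, against 32.5% each way (edgeR). Dcn went from 226 and 223 normalized counts in wt to 7053 and 7239 in Top2β-null cells, and Postn from 2573 and 2563 to 41.4 and 46.5. Since clustered protocadherins are typical of neurons, neuronal markers were also counted: 7 of 13 had under 10 counts in each library, with Rbfox3, Snap25 and Dcx at no more than 8.29 normalized counts. The sum of the 13 was 7206 and 7135 in wt and 9708 and 10246 in Top2β-null cells, mostly Map2, Tubb3 and Gap43. Of 6 tested, Tubb3 was called higher (log2 fold change 1.15), against 5.27% called higher over all features. By adjusted p alone, 3 were higher (Tubb3, Syt1 and Gap43) and 1 was lower (Map2), against 32.5% each way (edgeR). Epithelial markers summed to at most 73.7 normalized counts in any library, and none was called by edgeR or DESeq2. Krt8 (45.4 and 45.4 in wt against 6.21 and 3.96) and Cdh1 (19.2 and 23.2 against 7.25 and 8.91) were lower, below the cut-off on level. Both passed the filter on low counts through the wt libraries alone. Endothelial markers summed to 165 and 162 in wt and 252 and 258 in Top2β-null cells, with Kdr called higher. Tek was lower (43.4 and 34.8 in wt against 9.32 and 3.96) and also passed the filter through the wt libraries alone. Leukocyte markers summed to at most 1013, nearly all of it Csf1r, with Ptprc at 6.76 or less. Itgam went from 1.01 and 0.966 to 28.0 and 28.7 and passed the filter on low counts through the Top2β-null libraries alone. The part of these markers in the protocadherin differences was not tested.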

How the data were processed

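Paired-end reads of the 2 wt and 2 Top2β-null libraries were trimmed, aligned to mm10 with STAR, keeping reads with up to 100 alignments, and counted with TEtranscripts over Gencode M9 genes and repeat families. The authors deposited whole-number counts per gene and repeat family, without normalization. How reads that fit several genes were shared, and whether strand was used, is not given in the sources used here.

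Gene IDs were matched without version to GENCODE M21 (54409 of 54842), which gave symbols, positions on GRCm38 and exonic lengths. Features that reached 10 counts in 2 or more libraries (25085 genes among 26566 features) were fitted with edgeR 4.0.16 in R 4.3.3 (TMM factors over genes and repeats, quasi-likelihood test, genotype as the only term, Benjamini-Hochberg adjustment over all features). The calling cut-offs are those of the study's methods, applied there to DESeq2. Standard errors were taken from the fold change and its F statistic. Counts over the lowest gene of the alpha or gamma cluster were fitted in the same way with all other features, using Python 3.11.15 for the subtraction. An exact binomial interval at 95% was used for the pooled alpha counts, and intervals and floors cover counting error only. The tests were also run on simulated data.

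Members, gene lists and tests were chosen with earlier results of these data known. Named by rule were Top2b, the 5 C-type genes, up to 8 called genes per cluster, the 2 genes of each cluster with the most RNA per kb, the first and last gene of each cluster, called genes of the other lists, and Ctcf, Rad21, Smchd1, Dnmt3b and Taf7. Alternatives were DESeq2 1.42.0, TMM factors computed over genes alone, total-count scaling, no filter, at least 100 counts in every library, the replicate block, adjusted p as the only cut-off, other lengths and leaving out each library. Replicate libraries differed beyond counting noise (chi-square of 3.65 per degree of freedom for wt, 5.07 for Top2β-null), which cannot show whether they came from separate cultures. All 4 were kept as separate libraries. The smallest p that an exact permutation test reaches with 2 libraries against 2 is 0.333. Promoter sequences of these genes were not analysed here.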

Additional observations from a re-analysis of the deposited data

How the results depend on the processing

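With at least 100 counts in every library, 0 alpha genes were called lower in place of 1 and 4 beta genes higher in place of 8, because this filter removes genes that are low in a genotype. With adjusted p as the sole criterion, 14 alpha genes and 1 beta gene were lower, 4 gamma genes were higher and 2 lower. Counts over the lowest gene gave 3 gamma genes called higher with edgeR and 3 with DESeq2. The log2 ratio of summed counts was 2.44 for beta (2.38 as reported) and 0.047 for gamma (-0.023 as reported) with scaling to the total count, which moved the median of all genes tested from -0.0058 to 0.064. The median log2 fold change of gamma genes then went from 0.042 to 0.11. Without C-type genes the gamma log2 ratio was 0.13. Over the lowest gene it came to 2.41, a value whose size depends on that gene having no reads of its own. Per kb of exonic bases that no other gene shares, the highest wt level was 217 in alpha (Pcdhac2), 65.9 in beta (Pcdhb21) and 7510 in gamma, and 6570 in gamma in Top2β-null MEF cells (Pcdhgc3 in both). The log2 fold change of Pcdhga1, -0.0037 as reported, turned positive with DESeq2 (0.0045), TMM factors computed over genes alone (0.0084), total-count scaling (0.066), no filter (0.013) and at least 100 counts (0.003), so it has no direction here. The cause of these shifts was not tested.

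With each library left out in turn, and the features of the full fit kept, the number called was 1 in each fit for alpha lower, 8 to 9 for beta higher, and 0 in each for alpha higher, beta lower and gamma in either direction. The log2 ratio of summed counts ran from 2.33 to 2.42 for beta and from -0.045 to 0.00028 for gamma, Top2b from -2.27 to -2.24, and Pcdhga1 turned to 0.039 without wt replicate 2 and to 0.041 without Top2β-null replicate 1. A group reduced to 1 library was assumed to vary like the other. Over 19 members, 98 of 106 values from fits of all libraries and 72 of 76 with a library left out kept direction and side of the threshold. Over the lowest gene, 42 of 44 values with a library left out did so, and the exceptions were both of Pcdhgc4.

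When the replicate number entered the fit as a replicate block, 1 alpha gene was called lower and 8 beta genes higher, as without it, and it changed no other call on the members as deposited. Counts over the lowest gene, neighbours and gene lists were not fitted with the block. Deviations of same-numbered libraries correlated at 0.0207 over 17952 features, so the numbers were not taken to pair the libraries. The search for a promoter motif was not run. Depth limits the first 13 beta genes and the alpha genes other than Pcdhac2, and the subtraction of the lowest gene assumes that it has no reads of its own.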
